A study of Homo sapiens with 6 samples.

Results

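The genes that encode the NF-kB transcription factors and their inhibitors were examined in SW480, a human cell line established from a colorectal adenocarcinoma. The set was chosen by name, with earlier results of these data known, and holds 10 of the 60664 genes in the deposited table. Its subunit genes are NFKB1, NFKB2, RELA, RELB and REL, and its classical inhibitor genes are NFKBIA, NFKBIB and NFKBIE. It also holds the ubiquitin-editing enzyme gene TNFAIP3, and BCL3, which encodes a nuclear relative of the inhibitors. Each symbol matched exactly 1 row. RNA was sequenced from 3 libraries of cells given buffer and 3 of cells given Amuc_0904, all of the genotype labelled WT. Amuc_0904 is named in the style of gene tags of Akkermansia muciniphila, a bacterium of the gut, and its preparation, dose and exposure time are not given in the sources used here. The study asked which genes differ between cells given the agent and cells given buffer.

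NF-kB factors are pairs of subunits that wait in the cytoplasm bound to inhibitor proteins. In the classical branch, signals from receptors for tumour necrosis factor, interleukins or bacterial products activate the IKK kinases, the inhibitors are marked for destruction and pairs that contain the RELA protein enter the nucleus. In the alternative branch the precursor encoded by NFKB2 is trimmed to a shorter DNA-binding form that works with the RELB protein. Several genes of the system, NFKBIA and TNFAIP3 among them, are themselves targets of NF-kB and act as negative feedback, and in colorectal cancer cells the pathway drives cytokine and survival genes.

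Levels are in TPM, a share of each library's transcripts scaled for their length, so that genes can be compared with each other within a library. The read number behind each value cannot be recovered from TPM, and the depth of the libraries is unknown. Between 14244 and 14586 genes per library had at least 1 TPM. Of the 10 colorectal epithelial markers examined, EPCAM, KRT8, KRT18, KRT19, CDX2 and CDH1 had at least 1 TPM in every library, while KRT20, CDX1 and LGALS4 were below 1 TPM in every library and VIL1 was between 0.69 and 1.09 TPM. Summed over its list, the epithelial level was 7907 to 8149 TPM in buffer and 7092 to 7380 TPM in treated libraries. The 10 immune cell markers summed to 3.15 to 3.29 TPM in buffer and 2.01 to 3.45 TPM in treated libraries, with PTPRC listed at 0 throughout. The 6 fibroblast and 5 endothelial markers summed to at most 3.76 and 0.8 TPM in any library. In bulk RNA fewer cells of a type and less RNA per cell cannot be told apart. Along the first principal component of all tested genes buffer replicate 2 and Amuc_0904 replicate 3 lay farthest apart. They also had the steepest slopes of expression with transcript GC content, 0.09 and -0.11 on the log2 scale per 10 percentage points of GC. Buffer replicates 1 and 3 had slopes of 0.005 and 0.05, and Amuc_0904 replicates 1 and 2 had slopes of -0.04 and 0.002. Every treated library thus had a lower slope than every buffer library, so the GC trend cannot be told apart from the treatment.

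The stretches of promoter that match the kappa B consensus, the DNA motif bound by NF-kB, are shown because several of these genes are known NF-kB targets. Promoters came from RefSeq on GRCh38.p14 and run from 250 bases before to 50 bases after the RefSeq start, from which all distances here are counted. They matched 8 of the 10 genes by symbol, and 5 of the 8 held the consensus on either strand, against 11.3% of all 35116 promoters of that length. Each line gives 30 bases on the strand of the gene, 5′ to 3′, with the match in capitals.

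NFKBIA: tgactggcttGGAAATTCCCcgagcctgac

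TNFAIP3: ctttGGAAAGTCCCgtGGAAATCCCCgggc

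NFKB1: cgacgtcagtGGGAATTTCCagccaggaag

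REL: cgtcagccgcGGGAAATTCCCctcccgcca

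BCL3: ccggctgcagGGGAAGTCCCggcgcccggc

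The NFKBIA stretch lies at chr14:35404811-35404840 on the minus strand, and its match begins 81 bases before the start. The TNFAIP3 stretch, at chr6:137867188-137867217 on the plus strand, holds 2 separate matches, which begin 67 and 55 bases before the start. The NFKB1 stretch is at chr4:102501300-102501329 and the REL stretch at chr2:60881517-60881546, both on the plus strand, with matches that begin 49 and 47 bases before the start. The REL match is read on both strands, with an offset of 1 base. The BCL3 match, at chr19:44748700-44748729 on the plus strand, begins just after the start. The gene spans given further on are from GENCODE, where TNFAIP3, REL and BCL3 begin upstream of the RefSeq start, so that their matches lie inside the GENCODE genes. The matches of NFKBIA and NFKB1 lie upstream of both starts. The consensus letters were not present in these windows of NFKB2, RELA and NFKBIB. The RELA window, chr11:65663808-65664107 on the minus strand, lies wholly upstream of the GENCODE gene. It does not reach the GENCODE start, so the bases next to that start were not searched. A match is a description of the letters and was not tested for binding.

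Of the 10 genes, NFKBIA and NFKB2 rose in cells given Amuc_0904, 0 fell and 8 did not pass. The threshold was an adjusted p of 0.05 in limma, fitted on log2(TPM + 1) over all 14421 genes with at least 1 TPM in at least 3 libraries, of which 1.37% passed, 0.368% upwards and 0.999% downwards. All 10 genes were among those tested. The count of 2 went to 1 without Amuc_0904 replicate 3 (NFKBIA) and to 0 without any other single library. The median log2 difference of the 10 genes was 0.24, against -0.06 over all tested genes. In 5 of the 10 every treated library was above every buffer library, which was the case for 7% of all tested genes, and in 1, RELA, every treated library was below, as in 20.1% of all tested genes. At an unadjusted p under 0.05 there were 6 of the 10, against 20.8% of all tested genes. The 10 genes were chosen with earlier results of these data known, so these counts and the median are no independent evidence of direction. The labels do not say whether libraries of a group came from separate cultures, so p-values measure the spread between these libraries only. Of the 6 epithelial markers tested, 1 fell, 5 did not pass and 0 rose. CDH1, which encodes E-cadherin, was at 6.71, 8.33 and 5.99 TPM in the buffer libraries and 3.78, 3.57 and 4.06 TPM in the treated ones, a log2 difference of -0.73 (SE 0.13, limma adjusted p = 0.0444). This call was lost whichever single library was left out (limma adjusted p from 0.0609 to 0.143). It was also lost after centring (adjusted p = 0.0624) and quantile normalization (0.0567) and with no filter on low values (0.159). Further losses came with the replicate number as a block (0.0928), with no mean-variance trend (0.0711) and without both end libraries of the first principal component (0.161). The call held after removal of the GC trend (0.0455). The intestinal transcription factor gene CDX2, named after its values were seen, had a log2 difference of -0.54 (limma adjusted p = 0.0767). It passed only without buffer replicate 3 (-0.70, limma adjusted p = 0.0295), its lowest buffer library (21.95 TPM, against 30.71 and 31.24 TPM). In every other alternative setting CDX2 did not pass (limma adjusted p from 0.0789 to 0.282). All 6 markers had negative differences, as had 9007 of the 14421 tested genes. In 5, all but KRT18, every treated library was below every buffer library, against 20.1% of all tested genes. After centring the 6 differences ran from -0.65 (CDH1) to -0.03 (KRT18). After removal of the GC trend they ran from -0.75 (CDH1) to -0.01 (KRT19). The part of these markers in the NF-kB results was not tested.

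**Figure D1:**
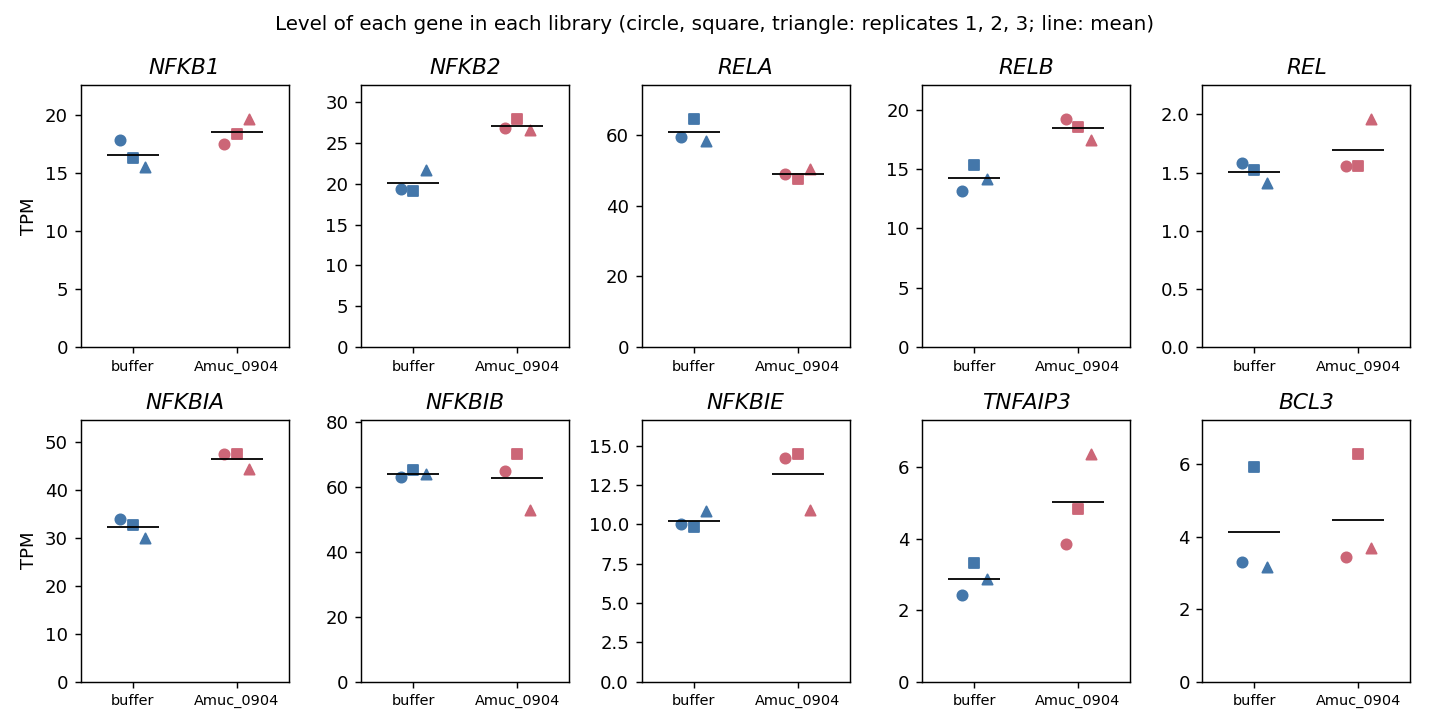
TPM (y axis, from 0) of each of the 10 genes in the 3 buffer libraries (blue) and the 3 Amuc_0904 libraries (red); circles, squares and triangles are replicates 1, 2 and 3 and lines are group means. The groups do not overlap for NFKB2, RELB, NFKBIA, NFKBIE and TNFAIP3 (treated above) and for RELA (treated below), and replicate 2 is the highest for BCL3 in both groups.

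Among the subunit genes, RELA was the most abundant in all 6 libraries. RELA encodes the subunit with the strong activation domain in the classical branch. It was at 59.44, 64.46 and 58.15 TPM in the buffer libraries and at 48.80, 47.44 and 50.32 TPM in the treated libraries. The lowest buffer library was thus above the highest treated library. The level was 1.24 times as high in buffer, and the log2 difference was -0.31 (SE 0.07, 95% confidence interval -0.46 to -0.15), which did not pass (limma adjusted p = 0.0631). With the trend with GC content removed from each library, the difference was -0.23 (limma adjusted p = 0.129). RELA (ENSG00000173039) lies on chromosome 11 from 65653596 to 65663094 and overlaps 1 annotated gene on the other strand. The strand protocol is not given in the sources used here, so reads of the pair may not be separated.

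NFKB2 encodes the precursor of the alternative branch, which also acts as an inhibitor before it is trimmed. It was at 19.40, 19.07 and 21.71 TPM in the buffer libraries and 26.87, 27.92 and 26.55 TPM in the treated ones. The treated libraries lay close together, and all were above the buffer libraries. It rose 1.35-fold between means of 20.1 ± 1.44 and 27.1 ± 0.717 TPM (SD, n = 3 libraries each), a log2 difference of 0.42 (SE 0.08, 95% confidence interval 0.24 to 0.60, limma adjusted p = 0.0472). This call was lost whichever single library was left out (limma adjusted p from 0.0636 to 0.169, with differences of 0.39 to 0.47), and also after centring each library on its median (adjusted p = 0.0593) and after quantile normalization (adjusted p = 0.0551). It was also lost with no filter (adjusted p = 0.126), with no mean-variance trend (0.0896) and without both end libraries of the first principal component (0.179). After removal of the GC trend the difference was 0.54 (limma adjusted p = 0.0242). NFKB2 (ENSG00000077150) spans 102394110 to 102402529 of chromosome 10, where no other gene is annotated.

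RELB, the usual partner of the trimmed NFKB2 product, was at 13.14, 15.38 and 14.19 TPM in the buffer libraries and 19.21, 18.58 and 17.47 TPM in the treated ones. As with NFKB2, every treated library was above every buffer library. The ratio of means was 1.29 and the log2 difference was 0.35 (SE 0.09, 95% confidence interval 0.15 to 0.55), which did not pass (limma adjusted p = 0.0835). After removal of the GC trend the difference was 0.51 and passed (limma adjusted p = 0.0215). RELB (ENSG00000104856) spans 45001430 to 45038198 of chromosome 19 with no other annotated gene. Its longest transcript is 65.4% G and C, the highest share among the 5 subunit genes.

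NFKB1, which encodes the precursor of the classical branch, was at 17.78, 16.28 and 15.49 TPM in the buffer libraries and 17.50, 18.33 and 19.61 TPM in the treated ones. The groups overlapped, since buffer replicate 1 was above Amuc_0904 replicate 1. The log2 difference was 0.15 with a 95% confidence interval of -0.04 to 0.35 (limma adjusted p = 0.351), so a rise of moderate size lies within the interval. REL, which encodes the subunit best known from lymphocytes, was the least abundant of the 10 genes in every library. It was at 1.58, 1.52 and 1.41 TPM in the buffer libraries and 1.56, 1.56 and 1.96 TPM in the treated ones, where only Amuc_0904 replicate 3 was above the buffer range. Its interval, -0.22 to 0.43, was wide at this level (limma adjusted p = 0.725). NFKB1 (ENSG00000109320) overlaps no other annotated gene, and REL (ENSG00000162924) overlaps 2 on its own strand.

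NFKBIA encodes the inhibitor that is destroyed and then remade most rapidly upon a signal, and had the lowest p of the 10 genes. It was at 33.91, 32.67 and 29.87 TPM in the buffer libraries and 47.49, 47.48 and 44.26 TPM in the treated ones. The gap between the groups was wider than the range within either. It rose 1.44-fold, with a log2 difference of 0.52 (SE 0.07, 95% confidence interval 0.35 to 0.69, limma adjusted p = 0.0209), rank 62 of 14421 genes by p. The call held without Amuc_0904 replicate 3 (limma adjusted p = 0.0424) and was lost without each of the other 5 libraries, buffer replicates 1, 2 and 3 and Amuc_0904 replicates 1 and 2, with adjusted p from 0.0514 to 0.0914 and differences of 0.47 to 0.56. It held after centring, quantile normalization and removal of the GC trend (adjusted p from 0.0164 to 0.0209). It was lost with no filter on low values (adjusted p = 0.098), with no mean-variance trend (0.0705) and without both end libraries of the first principal component (0.104). NFKBIA (ENSG00000100906) spans 35401511 to 35404749 of chromosome 14, where no other gene is annotated.

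NFKBIB, which encodes an inhibitor that is degraded and resynthesized more slowly, was the most abundant of the 10 genes in every library. It was at 62.81, 65.00 and 63.79 TPM in the buffer libraries and 64.88, 70.07 and 52.81 TPM in the treated ones. The treated range enclosed the buffer range, because Amuc_0904 replicate 3 was the lowest and replicate 2 the highest of all 6. The log2 difference was -0.04 with a 95% confidence interval of -0.27 to 0.19 (limma adjusted p = 0.862), and its sign turned to 0.08 without Amuc_0904 replicate 3. NFKBIB (ENSG00000104825) spans 38899700 to 38908893 of chromosome 19 and overlaps SIRT2 on the other strand.

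NFKBIE, the third classical inhibitor gene, was at 10.03, 9.82 and 10.84 TPM in the buffer libraries and 14.24, 14.49 and 10.92 TPM in the treated ones. The groups did not overlap, but Amuc_0904 replicate 3 was only just above the highest buffer library. The log2 difference was 0.33 (SE 0.12, 95% confidence interval 0.06 to 0.60) and did not pass (limma adjusted p = 0.168). Without Amuc_0904 replicate 3 it was 0.45 (limma adjusted p = 0.0882). NFKBIE (ENSG00000146232) spans 44258166 to 44265788 of chromosome 6.

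TNFAIP3 encodes an enzyme that edits ubiquitin chains on adaptors upstream of IKK and so restrains the pathway. It was at 2.43, 3.33 and 2.88 TPM in the buffer libraries and 3.85, 4.84 and 6.38 TPM in the treated ones. All treated libraries were above all buffer libraries, with a wide spread among the treated. Its ratio of means, 1.74, was the highest of the 10, and its log2 difference was 0.62 (SE 0.17, 95% confidence interval 0.22 to 1.02), which did not pass (limma adjusted p = 0.106). TNFAIP3 (ENSG00000118503), at 137867188 to 137883312 of chromosome 6, overlaps 1 gene on the other strand.

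BCL3 encodes a nuclear protein of the inhibitor family that binds the short products of NFKB1 and NFKB2 and can activate transcription. It was at 3.31, 5.93 and 3.18 TPM in the buffer libraries and 3.44, 6.29 and 3.69 TPM in the treated ones. Replicate 2 was the highest in each group, the groups overlapped, and the interval of the log2 difference, -0.48 to 0.66, was the widest of the 10 (limma adjusted p = 0.864).

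**Figure D2:**
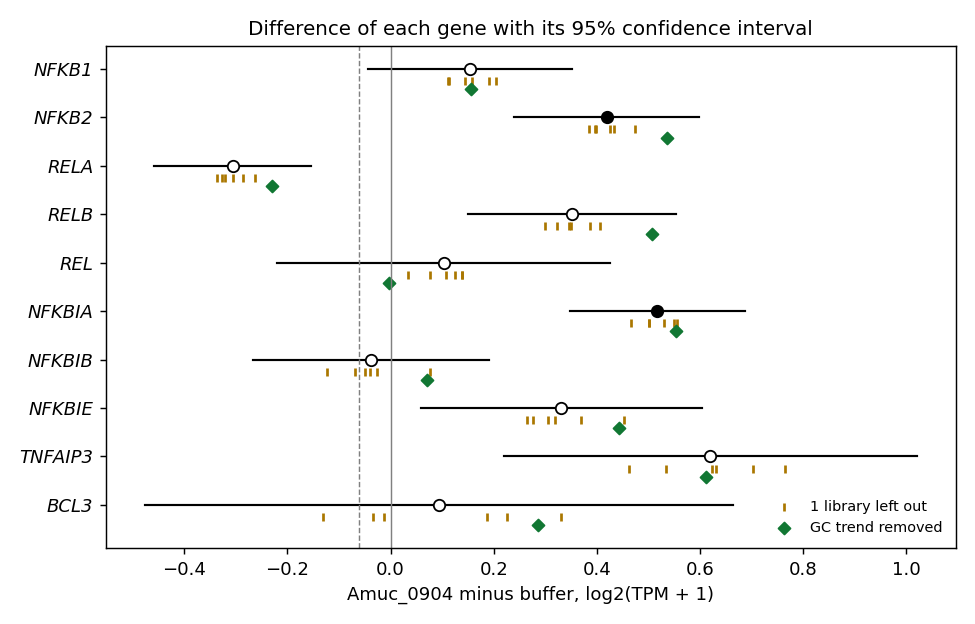
Log2 difference between Amuc_0904 and buffer on the log2(TPM + 1) scale (x axis) for each gene (y axis), with 95% confidence intervals from limma; filled circles passed an adjusted p of 0.05, ticks are fits with 1 library left out, diamonds are fits with the GC trend removed, the solid line is 0 and the dashed line the median of all tested genes, -0.06. The intervals of NFKB2, RELB, NFKBIA, NFKBIE and TNFAIP3 lie above 0 and that of RELA below it, before adjustment for the number of genes tested.

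The order of the 10 levels was similar in both groups, with other gaps between neighbours. In buffer the group means ran from NFKBIB (63.9 TPM) and RELA (60.7 TPM) through NFKBIA, NFKB2, NFKB1, RELB and NFKBIE to BCL3, TNFAIP3 and REL (1.41 to 1.58 TPM). Of the neighbours in that order, NFKBIB and RELA overlapped in range over the buffer libraries, as did BCL3 and TNFAIP3, and the other 7 pairs did not. In treated cells NFKBIB was at 62.6 TPM and no longer overlapped RELA, while RELA (48.9 TPM) and NFKBIA (46.4 TPM) overlapped, as did NFKB1 and RELB and also TNFAIP3 and BCL3. These statements are about ranges of 3 libraries and were not tested.

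The levels were also set against each other within each library, which removes any scaling that the genes share. Summed over the 5 subunits, the level was 111 to 117 TPM in buffer and 114 to 116 TPM in treated libraries, so the groups overlapped. Within that sum RELA made up 53.4%, 55.2% and 52.4% in buffer and 42.8%, 41.7% and 43.4% in treated libraries. NFKB2 made up 17.4%, 16.3% and 19.6% in buffer and 23.6%, 24.5% and 22.9% in treated libraries, and RELB went from 12.6% ± 0.710 to 16.1% ± 0.917 (SD, 3 libraries per group). The shares of NFKB1 and REL overlapped between the groups. The share of RELA was thus lower, and those of NFKB2 and RELB higher, in every treated library, without a test of the shares.

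NFKBIA stood at 0.571, 0.507 and 0.514 of the RELA level in buffer and at 0.973, 1.001 and 0.880 of it in treated libraries. The ratio of NFKB2 to RELA was 0.326, 0.296 and 0.373 in buffer and 0.551, 0.589 and 0.528 in treated libraries. The ratios of RELB and of NFKB1 to RELA did not overlap between the groups either, with means of 0.235 and 0.273 in buffer and 0.377 and 0.378 in treated libraries. By contrast the ratio of NFKB2 to NFKB1 overlapped, with means of 1.22 ± 0.161 in buffer and 1.47 ± 0.101 in treated libraries (SD, n = 3). Because RELA is the denominator of the first 4 ratios, these are not independent of each other, and no test was made of them. Among the 3 classical inhibitors NFKBIB made up 58.8% to 61.0% of the summed level in buffer and 48.9% to 53.1% in treated libraries, and NFKBIA 28.6% to 31.8% and 36.0% to 41.0%. The classical inhibitors summed to 104.5 to 107.5 TPM in buffer and to 127, 132 and 108 TPM in treated libraries.

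**Figure D3:**
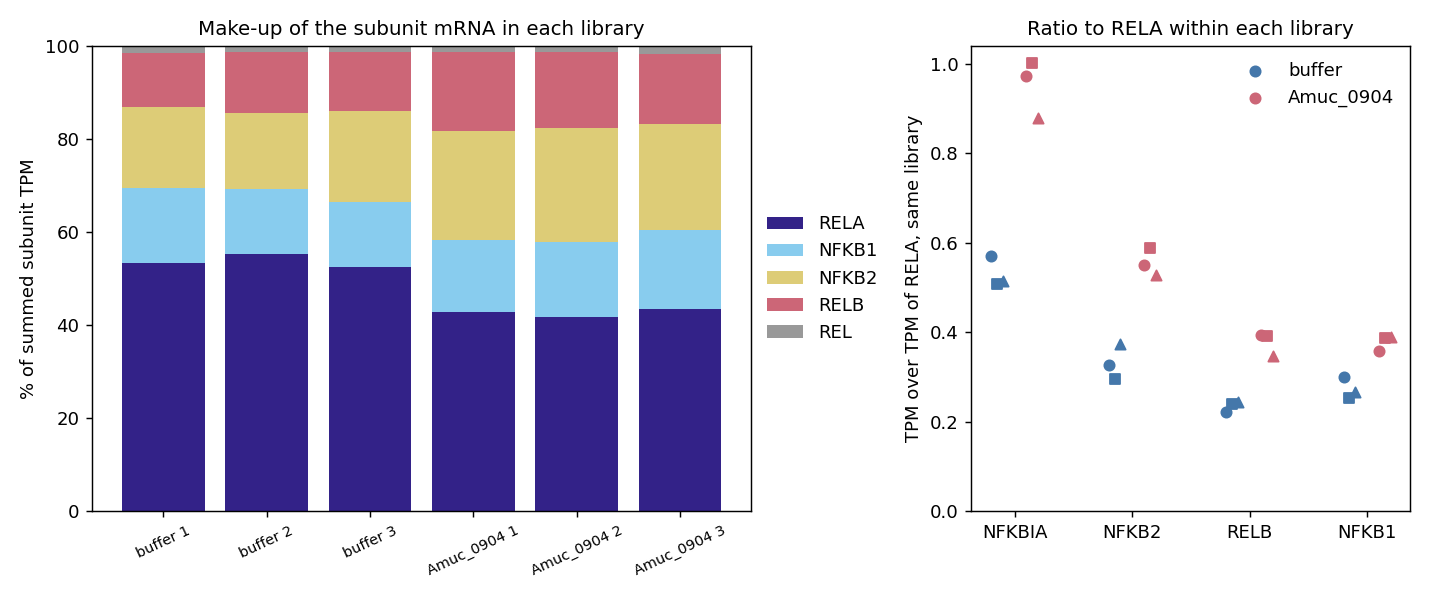
Left, the share of each subunit gene in the summed TPM of the 5 subunits (y axis, percent) in each library (x axis); right, TPM of 4 genes over that of RELA in the same library (y axis, no unit), with circles, squares and triangles for replicates 1, 2 and 3. RELA makes up 52.4% to 55.2% in buffer and 41.7% to 43.4% in treated libraries, and all 4 ratios are higher in the treated libraries.

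Amuc_0904 replicate 3 differed from the other 2 treated libraries, and GC-rich and GC-poor transcripts differed in opposite directions. The 5 genes with over 60% GC in their longest transcript, NFKB2, RELB, NFKBIB, NFKBIE and BCL3, were all lower in it than the mean of the other 2, by log2 values between -0.04 for NFKB2 and -0.37 for NFKBIE. For BCL3 this rests on a high replicate 2 (3.44, 6.29 and 3.69 TPM in treated replicates 1, 2 and 3), and replicate 3 was above replicate 1. NFKB2, RELB, NFKBIB and NFKBIE were lowest in replicate 3 among the treated libraries. The 3 with the lowest GC, REL (38.7%), TNFAIP3 (49.5%) and NFKB1 (50.1%), were all higher in it, by 0.21, 0.47 and 0.12. RELA (57.1%) and NFKBIA (53.1%), between these, were at 0.06 and -0.10. This library also had the lowest slope of expression with GC over all tested genes. Its part in the spread of NFKBIE, NFKBIB and TNFAIP3 was not tested. With the GC trend removed from each library, the differences of NFKBIE and TNFAIP3 were 0.44 and 0.61 and did not pass (limma adjusted p = 0.0905 and 0.134). In that fit 3 of the 10 genes rose, NFKB2, RELB and NFKBIA, beside 69 of all 14277 genes tested in it.

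The rest of the pathway was followed in lists drawn up from the known roles of the genes. The list of IKK subunits and upstream kinases also holds the adaptor genes TAB1, TAB2 and TAB3. Of its 11 genes, all tested, 0 passed, with a median log2 difference of 0.01. An unadjusted p under 0.05 was found for 3, near the 20.8% of all tested genes that had one. By mean level the first of the 11 were IKBKE, an IKK-related kinase gene, and IKBKG, the regulatory subunit gene of IKK. IKBKE was at 21.95, 28.31 and 24.39 TPM in the buffer libraries and 34.82, 36.04 and 31.29 TPM in the treated ones, with a log2 difference of 0.44 (SE 0.10) that did not pass (limma adjusted p = 0.0751) but passed after removal of the GC trend (0.54, limma adjusted p = 0.0265). IKBKG was at 27.3 ± 2.47 and 26.6 ± 0.480 TPM (limma adjusted p = 0.849). MAP3K14, the kinase that starts the trimming of the NFKB2 precursor, is given here after its values were seen: it was at 13.57, 14.03 and 12.28 TPM in the buffer libraries and 10.16, 12.20 and 9.50 TPM in the treated ones (log2 difference -0.30, limma adjusted p = 0.173). All 3 treated libraries were thus below the buffer libraries, as in 20.1% of all tested genes, the opposite side from NFKB2 and RELB. MAP3K8, another kinase gene of this list and also named after its values were seen, differed the other way. Its log2 difference was 0.35 (limma adjusted p = 0.175). Treated libraries were all above the buffer ones for 2 of the 11 genes, IKBKE and MAP3K8, and all below for 1, MAP3K14. Over all tested genes this was so for 7% (above) and 20.1% (below). Whether MAP3K14 has a part in the NFKB2 and RELB differences was not tested.

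Of 12 tested genes listed as regulators of ubiquitin chains around IKK, 0 passed, the median was -0.04 and 5 had an unadjusted p under 0.05 (20.8% of all tested genes). TNIP1, which encodes a partner of the TNFAIP3 protein, and RBCK1, a subunit gene of the linear ubiquitin ligase, had the highest levels. TNIP1 had means of 97.7 ± 5.72 (buffer) and 109.8 ± 2.71 TPM (treated; SD, limma adjusted p = 0.182), and RBCK1 of 86.2 ± 6.87 and 77.0 ± 5.47 TPM (adjusted p = 0.307). TNIP3, also on this list, was listed at 0 in every library and not tested. The values nearest the threshold, chosen after they were seen, went in opposite directions. ZC3H12A, listed here among the ubiquitin regulators, also encodes a nuclease that degrades cytokine mRNAs. ZC3H12A was at 8.39, 11.16 and 9.69 TPM in the buffer libraries and 14.63, 16.32 and 14.36 TPM in the treated ones (limma adjusted p = 0.051). RNF31, which encodes the catalytic subunit of the linear ubiquitin ligase, was at 15.14, 20.70 and 17.04 TPM in the buffer libraries and 9.67, 11.21 and 11.75 TPM in the treated ones (limma adjusted p = 0.0518). Neither overlapped between groups, which was so for 27.1% of all tested genes, counting either direction. After removal of the GC trend ZC3H12A passed (limma adjusted p = 0.0173) while RNF31 did not (adjusted p = 0.086).

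The other 2 atypical inhibitor genes did not pass: NFKBID had means of 9.72 (buffer) and 10.04 TPM (treated; limma adjusted p = 0.862), and NFKBIZ of 2.59 and 3.44 TPM (adjusted p = 0.331). Of the 5 genes for the ubiquitin ligase that marks the inhibitors for destruction 0 passed, with a median of 0.02. An unadjusted p under 0.05 was found for 1 of the 5, near the 20.8% of all tested genes. SKP1 and CUL1, its most abundant subunit genes, had means of 833 and 898 TPM (SKP1, limma adjusted p = 0.379) and of 70.9 and 72.0 TPM (CUL1, adjusted p = 0.898) in buffer and treated cells. Of 11 genes listed as nuclear regulators of RELA 0 passed, the median was -0.12 and 4 had an unadjusted p under 0.05, beside 20.8% of all tested genes. Not all of the 11 are nuclear: the list also holds NKIRAS1 and NKIRAS2, and NKIRAS2 is 1 of these 4 (limma unadjusted p = 0.016). In 4 of the 11 every treated library was below every buffer library, as in 20.1% of all tested genes. PDLIM2, which acts on the stability of the RELA protein, had means of 44.7 ± 3.63 TPM in buffer and 41.5 ± 7.38 TPM in treated cells (SD, limma adjusted p = 0.652).

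Of 23 tested NF-kB target genes outside the set, 8 rose, 0 fell and 15 did not pass, with a median of 0.45, while 0.368% of all tested genes rose. The list was drawn up with earlier results of these data known, so its count is no independent evidence of direction. Those that rose were the cytokine and chemokine genes CCL2, IL32, CSF2, LTB and CXCL1, the antioxidant enzyme gene SOD2, the stress response gene IER3 and BIRC3, which encodes an inhibitor of apoptosis, with log2 differences between 0.30 and 1.35. In 18 of the 23 all treated libraries were above all buffer libraries, which was so for 7% of all tested genes. The count was 4 without buffer replicate 2, buffer replicate 3, Amuc_0904 replicate 1 or Amuc_0904 replicate 2, and 5 without buffer replicate 1 or Amuc_0904 replicate 3. CCL2, IL32, CSF2 and LTB were called in each of these 6 fits. Among those that did not pass, named after their values were seen, the adhesion gene ICAM1 was at 45.15, 45.46 and 46.25 TPM in the buffer libraries and 52.64, 54.32 and 52.60 TPM in the treated ones (limma adjusted p = 0.0997), and the survival gene BCL2L1 was at 212 ± 1.98 and 186 ± 4.84 TPM (limma adjusted p = 0.103). BCL2L1 was the 1 target gene with all treated libraries below the buffer libraries, beside 20.1% of all tested genes. VCAM1 was listed at 0 in every library.

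**Figure D4:**
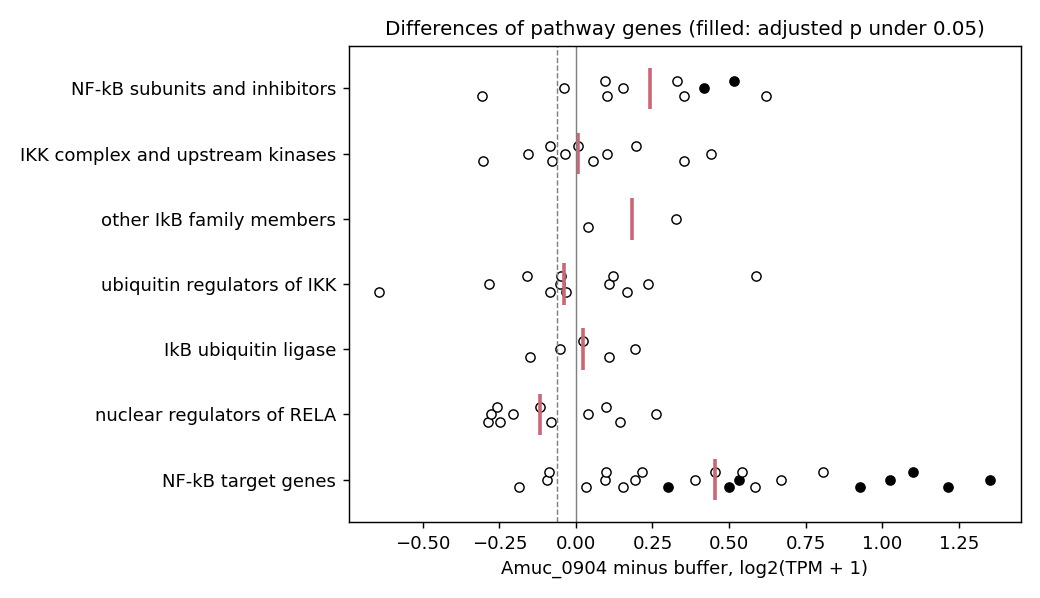
Log2 difference between Amuc_0904 and buffer on the log2(TPM + 1) scale (x axis) of each tested gene in the NF-kB set and in 6 lists of pathway genes (y axis); filled points passed a limma adjusted p of 0.05, red bars are list medians, the solid line is 0 and the dashed line the median of all tested genes. Filled points are 2 in the set and 8 among the targets, and there is none in the other 5 lists.

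The genes whose levels followed NFKBIA most closely over the 6 libraries, by Pearson correlation of log2(TPM + 1) among 9857 genes with a symbol and a mean of at least 5 TPM, were LTB, FABP5, OBI1, PLAT and SERPINA1 (r from 0.986 to 0.997). Those closest to NFKB2 were ICAM2, CSF2, PLEK2, DNTTIP1 and PI3 (r from 0.986 to 0.996). LTB encodes lymphotoxin beta and ICAM2 an adhesion molecule. In all, 56 of these genes had r over 0.95 with NFKBIA and 46 with NFKB2. The 6 libraries fall into 2 groups, so the values follow the treatment too and are descriptions with no test.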

How the data were processed

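The authors deposited 1 gene table of TPM with RSEM named as the quantifier, per the labels and series text. HISAT2, StringTie, edgeR and a mouse build (GRCm38.p6) also appear in the submitters' processing notes, although the identifiers are human Ensembl ones, so the annotation used is uncertain. Values have 2 decimals. No counts are given, so no count test was run. Genes with at least 1 TPM in at least 3 libraries were tested on log2(TPM + 1), a scale that understates the change of low genes, with limma 3.58.1 in R 4.3.3 (mean-variance trend, two-sided) and Benjamini-Hochberg adjustment over 14421 genes. The members and lists were chosen with earlier results of these data known. Genes named were all members, list members past the threshold or else the 2 with the highest mean, and the 5 most like NFKBIA or NFKB2. Others are said to be chosen later. A gene named by this rule is not reported here. Positions, GC content and lengths are from GENCODE 29 on GRCh38 (longest transcript), and promoters from RefSeq. GC trends were removed per library by loess with a span of 0.3, keeping each library's mean, for 14277 genes. The workflow was tested on simulated data. Figures used matplotlib 3.10.9 in Python 3.11.15.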

Additional observations from a re-analysis of the deposited data

How the results depend on the processing

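Over 14 alternative settings the signs of NFKB1, NFKB2, RELA, RELB, NFKBIA, NFKBIE and TNFAIP3 held each time. The number of the 10 genes past the threshold, 2 in the fit reported, was 1 with centring, with quantile normalization and with the replicate block, and 0 with no filter on low values, with no mean-variance trend and without both end libraries of the first principal component (buffer replicate 2 and Amuc_0904 replicate 3, a setting chosen after seeing the data). It was 0 to 1 with 1 library left out. The counts over all genes, 197 in the fit reported, were 85, 102, 80, 9, 44 and 16 in the same order of settings, and 35 to 112 with 1 library left out. With the GC trend removed 3 of the 10 genes passed, beside 171 of all 14277 genes tested in that fit. With 0.1 in place of 1 added to TPM it was 2 of the 10, beside 184 of all genes. Centring and quantile normalization moved the share of calls that fell from 73.1% to 49.4% and 54.9%, and removal of the GC trend to 59.6%. They moved the median of all tested genes from -0.06 to 0.02 and 0.01. In the NF-kB target list the count of 8 went to 2 with no filter, 4 with the replicate block, 4 with no mean-variance trend, 3 without both end libraries, and 4 to 5 with 1 library left out. It was 7 with quantile normalization and 9 with the GC trend removed. With the GC trend removed 1 gene of the kinase list (IKBKE) and 1 gene of the ubiquitin list (ZC3H12A) passed, in place of 0.

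NFKB2 did not pass with no filter (0.42, adjusted p = 0.126), centring (0.50, adjusted p = 0.0593), quantile normalization (0.49, adjusted p = 0.0551), the replicate block (0.42, adjusted p = 0.0962), no mean-variance trend (0.42, adjusted p = 0.0896) or without both end libraries (0.40, adjusted p = 0.179). Left-out fits gave it 0.39 to 0.47. NFKBIA did not pass with no filter (0.52, adjusted p = 0.098), no mean-variance trend (0.52, adjusted p = 0.0705) or without both end libraries (0.56, adjusted p = 0.104), and left-out fits gave 0.47 to 0.56. RELB passed with the GC trend removed (0.51). Signs turned for NFKBIB with centring (0.042), quantile normalization (0.021), the GC trend removed (0.071) and without both end libraries (0.090), and left-out fits gave -0.12 to 0.077. REL went to -0.0036 with the GC trend removed, and BCL3 to between -0.13 and 0.33 in left-out fits. With no filter 30992 genes were tested, and with fewer libraries the spread rests on fewer samples. The cause of the changes was not tested for any setting. Same-numbered libraries did not deviate together (correlations of -0.03, 0.08 and -0.09), so the replicate numbers are not taken as pairs. Depth is unknown from TPM, which leaves the precision at the low levels of REL, TNFAIP3 and BCL3 to the spread between libraries alone.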

Other observations

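BCL3 varied more within each group than between the groups, and in the same way in both. Replicate 2 was 1.79 times the next library in buffer (5.93 against 3.31 TPM) and 1.70 times in treated cells (6.29 against 3.69 TPM). Of 12661 tested genes with a mean of at least 2 TPM, 10 had replicate 2 at least 1.5 times as high as both other libraries in each group, BCL3 among them, and 14 and 11 had replicate 1 or replicate 3 so. BCL3 was singled out after its values were seen. The target gene IRF1, an interferon regulatory factor gene, also had replicate 2 highest in both groups, at 35.79, 48.00 and 26.86 TPM in buffer and at 23.97, 72.48 and 32.28 TPM in treated libraries, but by less than 1.5 times in buffer.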
